A study of Mus musculus with 8 samples.

Results

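Perineuronal net and brain matrix genes were examined in RNA-seq libraries made from whole mouse brains. The 10 members, of 24343 genes in the deposited table, were taken by symbol: the 4 lecticans Acan, Bcan, Ncan and Vcan, the 4 hyaluronan and proteoglycan link proteins Hapln1, Hapln2, Hapln3 and Hapln4, and the tenascins Tnr and Tnc. Whole brains came from 3 C57BL/6NCrl mice between 56 and 62 days of age, all of a single condition, with 3 libraries each from mouse 1 and mouse 2 and 2 libraries from mouse 3. The labels give neither the sex of the mice nor what separates the libraries of a mouse, and they name no treatment or transgene.

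Perineuronal nets are lattices of extracellular matrix that wrap the cell bodies and proximal dendrites of certain neurons, most of all the fast-spiking interneurons that express parvalbumin, and they form as juvenile plasticity closes. Their backbone is hyaluronan, a long sugar polymer extruded by synthases in the cell membrane. Lecticans are proteoglycans with chondroitin sulfate side chains that bind hyaluronan at one end, link proteins clamp that bond, and tenascin-R ties the other ends of the lecticans together. The same families also build the looser matrix between cells and the matrix around nodes of Ranvier.

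Levels are FPKM, fragment numbers scaled to transcript length and library size, which the authors deposited for each RefSeq transcript and which were summed over the transcripts of each gene. Since FPKM is scaled to transcript length, levels of different genes can be set beside each other. Each mean was taken over the libraries of a mouse and then over the 3 mice, and each SD is between mice (n = 3). In bulk RNA, fewer cells of a type and less RNA per cell cannot be told apart.

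The libraries held 1.31 to 2.02 gigabases read on annotated transcripts, and summed FPKM ran from 295541 to 409889, highest in the libraries of mouse 3. Markers of neurons, astrocytes and oligodendrocytes were present in every library, while the muscle gene Ckm (0.0193 FPKM) and the cartilage gene Matn1 (0.105 FPKM) were near 0. The 4 skeletal muscle markers summed to 13.1 FPKM in library 1 of mouse 2, of which Acta1 gave 12.6 FPKM, and to 2.09 to 4.77 FPKM in the other 7 libraries. The other markers of that list, Ckm, Myh4 and Mylpf, reached at most 0.116, 0.0918 and 1.82 FPKM in any library, so the excess was in Acta1 alone. Library 1 of mouse 2 is also the lowest for Bcan and among the lowest for Hapln4 below. That library had the lowest depth (1.31 gigabases), the lowest summed FPKM (295541) and the fewest genes at 1 FPKM or more (12728) as well. Whether its Bcan and Hapln4 levels are related to these values or to its Acta1 level was not tested. The libraries of mouse 3 stood apart: the 6 oligodendrocyte markers summed to 3906 and 4832 FPKM there against 2015 to 2227 in the other 6 libraries, the 6 astrocyte markers to 849 and 878 against 568 to 616, and the 7 neuron markers to 1522 and 1614 against 1791 to 1941. In the F-test described below, 3 of the 6, 6 of the 6 and 4 of the 7 passed, beside 25.5% of all tested genes. The 5 oligodendrocyte precursor markers summed to 64.4 to 87.1 FPKM over all libraries, with 1 of 5 called. Deviations from the mean of the libraries also fell with transcript length in mouse 3 (Spearman's rho across genes of -0.36 and -0.58) and rose with it elsewhere (0.18 to 0.50). The part of these differences in the results on mouse 3 below was not tested, except where a value with the length trend removed is given.

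Brevican was encoded by the highest of the 10 members. The members together reached 136.6 ± 2.50 FPKM (SD, n = 3), of which the lecticans held 65.7%, the link proteins 26.1% and the tenascins 8.15%. Bcan alone took 44.0% of the sum, and Acan, the proteoglycan most used to stain perineuronal nets, took 0.536%. In falling order the means were Bcan, Ncan, Hapln4, Tnr, Hapln2, Hapln1, Vcan, Tnc, Acan and Hapln3, and 6 of the 8 libraries kept this order exactly. The exceptions were library 2 of mouse 1, where Hapln4 was above Ncan, and library 2 of mouse 3, where Hapln1 and Hapln2 were both above Tnr. For all 9 pairs of neighbours in the order, the ranges of the 3 mouse means did not overlap. Over single libraries the ranges overlapped for Ncan and Hapln4, for Tnr and Hapln2, for Tnc and Acan, and for Acan and Hapln3. A paired exact permutation test over 3 mice cannot give a two-sided p below 0.25, so no test was made of the order. Of the members, 8 had a mean of at least 1 FPKM, the level required for testing, against 53.4% of all genes, and 4 of these lay above 8.81 FPKM, the median of the 13001 genes that reached it.

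**Figure D1:**
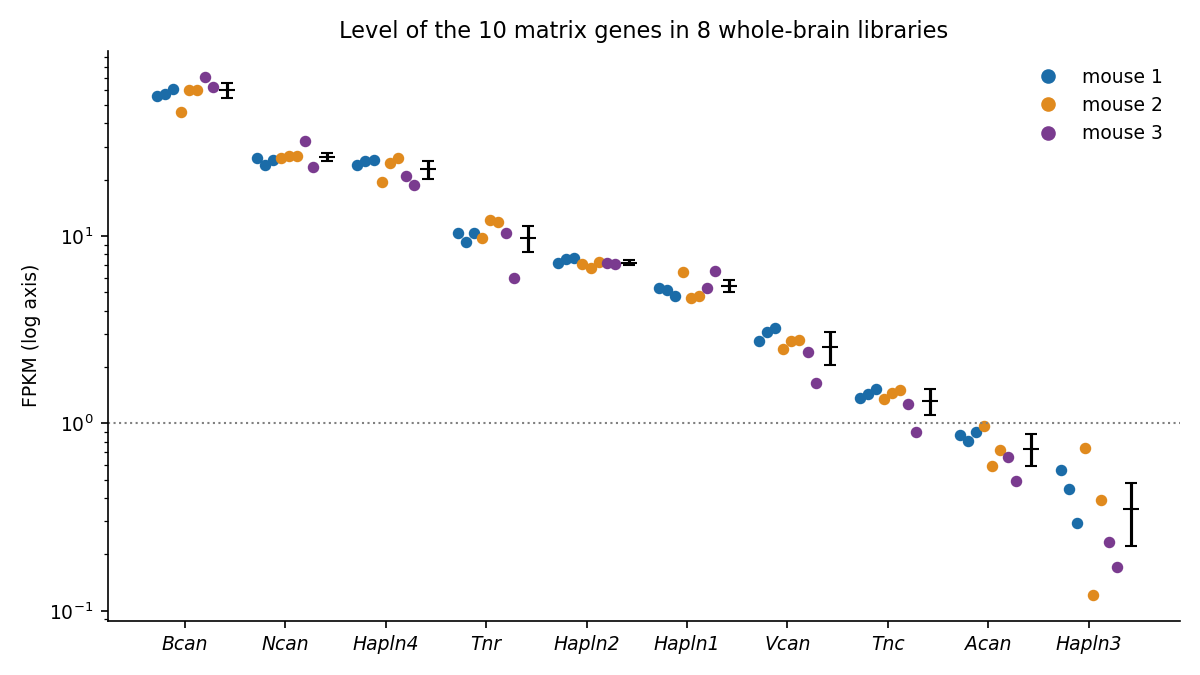
Level of each member in FPKM (log axis) in the 8 libraries, coloured by mouse, with the mean ± SD over 3 mice in black to the right of each gene and a dotted line at 1 FPKM. Bcan lies highest in every library, and Acan and Hapln3 lie below the line in every library.

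The lecticans ran from the highest member, Bcan, to the member above the lowest, Acan. Brevican is the lectican of the adult central nervous system, made largely by astrocytes, and its gene Bcan (chr3:87987531-88000356, minus strand, mm10) was at 60.0 ± 5.81 FPKM, above 95.8% of all genes. Its values were 56.0, 57.5 and 60.5 FPKM in mouse 1, then 46.1, 60.1 and 60.3 FPKM in mouse 2, and 70.8 and 62.3 FPKM in mouse 3. Both libraries of mouse 3 lay above the other 6, and library 1 of mouse 2 was the lowest.

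Neurocan, a secreted lectican abundant in the developing brain and cleaved in the adult, was encoded by the second highest member. Ncan (chr8:70093085-70120844, minus strand) was at 26.4 ± 1.24 FPKM, with 25.9, 24.0 and 25.5 FPKM in mouse 1, then 26.0, 26.9 and 26.6 FPKM in mouse 2, and 32.0 and 23.2 FPKM in mouse 3. The highest and the lowest value of the gene were thus the libraries of a single mouse, while the means of the mice differed by little (coefficient of variation 4.70%).

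Aggrecan, the large lectican of cartilage that also marks perineuronal nets, was expressed at a level far below its relatives. Acan (chr7:79053483-79115099, plus strand) was at 0.733 ± 0.141 FPKM, above 44.3% of all genes. Its values were 0.866, 0.809 and 0.898 FPKM in mouse 1, then 0.967, 0.591 and 0.723 FPKM in mouse 2, and 0.665 and 0.494 FPKM in mouse 3. All 8 values had a lower confidence bound above 0, so that Acan was detected in every library although it fell under the level required for testing. The 6 parvalbumin neuron markers, of which Pvalb itself was at 128.6 FPKM, summed to between 174.8 and 322.7 FPKM in the same libraries. Of the 6, 3 passed the F-test described below, where 25.5% of all tested genes did. Pvalb was highest and the potassium channel genes Kcnc1 and Kcnc2 were lowest in mouse 3. The 8 cartilage and fibroblast markers summed to 23.5 to 27.6 FPKM, with Dcn the highest at 14.9 FPKM. The cartilage genes among them were low, with Col2a1 at 0.247, Col9a1 at 0.214 and Matn1 at 0.105 FPKM.

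Versican, a lectican of migrating cells, of oligodendrocyte lineage cells and of nodes of Ranvier, was encoded by Vcan (chr13:89655310-89742512, minus strand), at 2.57 ± 0.509 FPKM. Its values were 2.74, 3.09 and 3.22 FPKM in mouse 1, then 2.48, 2.76 and 2.78 FPKM in mouse 2, and 2.40 and 1.64 FPKM in mouse 3. Both libraries of mouse 3 were below the other 6.

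Versican is made in several forms that differ in their sugar-bearing middle part, which is why the junctions that set the forms apart are shown here. Chondroitin sulfate is attached to the stretches encoded by exon 7, termed GAG-alpha (chr13:89702918-89705797, 2880 bases), and by exon 8, termed GAG-beta (chr13:89688285-89693501, 5217 bases), both coding exons on the minus strand of GRCm38. The form V0 keeps both exons, V1 keeps GAG-beta only, V2 keeps GAG-alpha only, and V3 has neither. In the GENCODE transcripts paired with the deposited RefSeq transcripts, the last 20 bases of the upstream exon (lower case) and the first 20 bases of the downstream exon (capitals) read, 5′ to 3′:
Exon 6 to GAG-alpha, in V0 and V2: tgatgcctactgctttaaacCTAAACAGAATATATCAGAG
Exon 6 to GAG-beta, in V1: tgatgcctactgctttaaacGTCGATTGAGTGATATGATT
Exon 6 to exon 9, in V3: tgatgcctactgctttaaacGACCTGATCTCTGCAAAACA
GAG-alpha to GAG-beta, in V0: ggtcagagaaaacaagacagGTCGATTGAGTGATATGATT
GAG-alpha to exon 9, in V2: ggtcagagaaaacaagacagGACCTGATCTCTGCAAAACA
GAG-beta to exon 9, in V0 and V1: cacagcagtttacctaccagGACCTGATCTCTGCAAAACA
The end of exon 6 is shared by the forms, and the capitals after it differ between V0 or V2, V1 and V3. Only reads across such junctions, or inside the GAG exons, tell the forms apart, and the deposited values rest on how the authors' estimation divided the reads.

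Of the 5 Vcan transcripts in the table, the V2 transcript led in 7 of 8 libraries, which is the form known as the main versican of the adult brain. V2 made up 60.4 ± 8.15% of the gene's FPKM (1.58 ± 0.488 FPKM). Its share was 70.5%, 67.3% and 62.8% in mouse 1, then 62.8%, 64.4% and 62.0% in mouse 2, and 56.4% and 46.1% in mouse 3. The share was lower in both libraries of mouse 3 than in any other library. It differed between the mice in an exact permutation test of the F statistic over 280 groupings of the libraries (unadjusted p = 0.00714, where 0.00357 is the smallest p it can give). With Benjamini-Hochberg adjustment over the members tested for shares, the p of this permutation test was 0.0143. Libraries of a mouse are not independent, so that this test and those below compare these 3 mice and no wider group.

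The V0 transcript followed with 27.7 ± 19.0% of the FPKM, and the V1 transcript with 9.64 ± 10.8%. V0 was at 0.219 to 0.306 FPKM in mouse 1, at 0.486 to 0.952 FPKM in mouse 2, and at 0.941 and 0.881 FPKM in mouse 3, where in library 2 it exceeded V2. V1 was at 0.503 to 0.745 FPKM in mouse 1, at 0.0314 to 0.523 FPKM in mouse 2, and listed at 7.02e-05 and 0.000148 FPKM in mouse 3. The lower confidence bound of V1 was above 0 in 4 of 8 libraries, and that of V0 in all 8. Within mouse 2, the library with the most V1 was the one with the least V0.

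The forms were also counted by exon. Transcripts with the GAG-beta exon, V0 and V1, together reached 0.922 ± 0.0240 FPKM, between 0.759 and 1.01 FPKM over the libraries. Their share of the gene's FPKM was 37.3 ± 8.49%, from 27.7% to 53.9%, with the highest shares, 39.3% and 53.9%, in mouse 3. Transcripts with the GAG-alpha exon, V0 and V2, held 88.1 ± 11.4% of the gene's FPKM and reached 2.22 ± 0.236 FPKM. V3 had a lower confidence bound above 0 in 1 library only, library 3 of mouse 1, and a short transcript that ends before exon 7 had none (mean 0.0504 FPKM).

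Bcan was the other member with more than 1 transcript. Brevican is known in a secreted and a membrane-anchored form, and which of the 2 transcripts codes for which was not examined here. The longer transcript (NM_007529, 3267 bases in the deposited table) was at 48.4 ± 6.59 FPKM and the shorter one (NM_001109758, 2685 bases) at 11.6 ± 1.10 FPKM. The longer held 80.4 ± 3.24% of the gene's FPKM, with 78.6%, 78.9% and 76.6% in mouse 1, then 76.0%, 81.7% and 79.6% in mouse 2, and 84.7% and 83.5% in mouse 3. Mouse 3 lay above the other libraries, but the same exact permutation test did not pass 0.05 (p = 0.0571, both unadjusted and adjusted). Leaving out 1 library at a time gave an exact permutation p of 0.00952 without library 1 of mouse 2 and of 0.0952 to 0.243 without any other. The share was tested in these 2 members only.

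**Figure D2:**
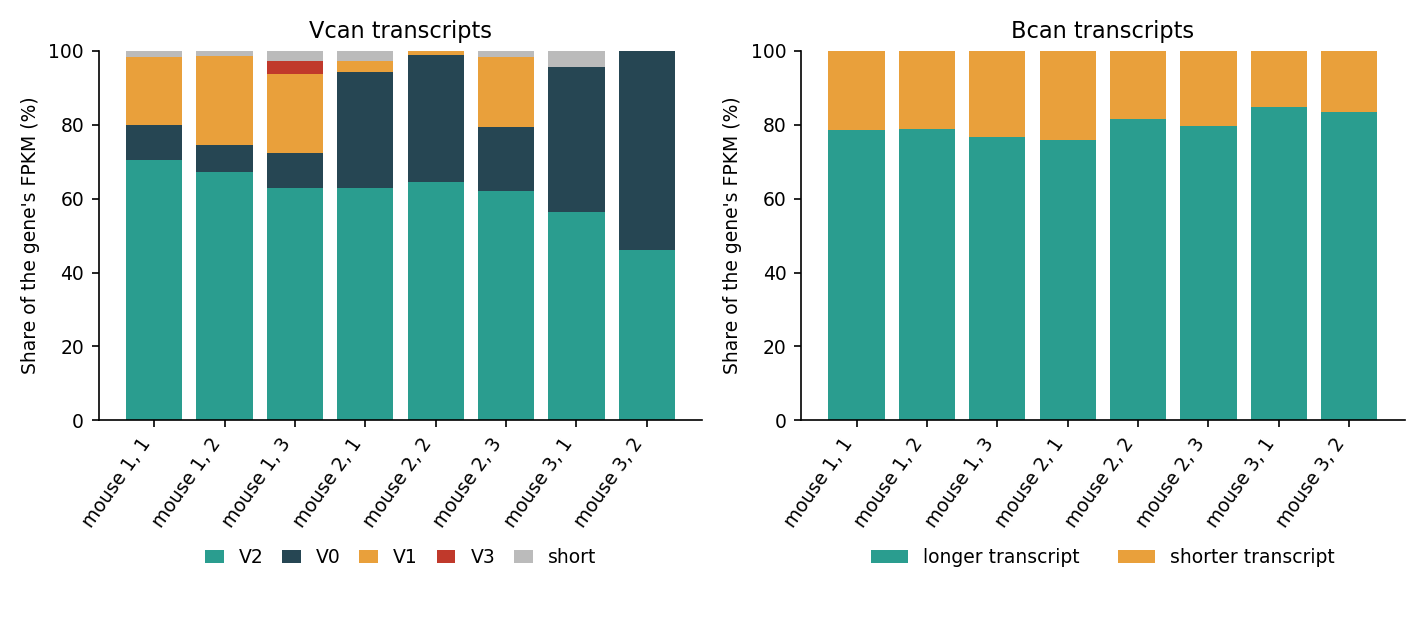
Share of each transcript in the FPKM of Vcan (left) and of Bcan (right), in percent, for each library, labelled by mouse and library number. The V2 share of Vcan falls to 56.4% and 46.1% in mouse 3, where almost no V1 is listed, and the longer Bcan transcript holds 76.0 to 84.7%.

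The link proteins were led by Hapln4, also called Bral2, which stabilizes matrix around inhibitory synapses and around neurons of the brain stem and cerebellum. Hapln4 (chr8:70083529-70090862, plus strand) was at 22.7 ± 2.54 FPKM, above 87.8% of all genes. Its values were 24.0, 25.3 and 25.4 FPKM in mouse 1, then 19.5, 24.5 and 26.0 FPKM in mouse 2, and 21.0 and 18.8 FPKM in mouse 3. Both libraries of mouse 3 were lower than 5 of the 6 others, the exception being library 1 of mouse 2.

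Hapln2, also called Bral1, is made by oligodendrocytes and sits with versican V2 and brevican at nodes of Ranvier. The gene (chr3:88021750-88027511, minus strand) had the smallest coefficient of variation of the members in FPKM, at 7.22 ± 0.202 FPKM, with 6.72 FPKM in the lowest library and 7.60 FPKM in the highest. Its levels in mouse 3, 7.18 and 7.13 FPKM, fell within the range of the other libraries, in which the summed oligodendrocyte markers were lower.

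Hapln1, the cartilage link protein, is the link protein best known from perineuronal nets. The gene (chr13:89540636-89611832, plus strand) was at 5.42 ± 0.407 FPKM. Its values were 5.29, 5.16 and 4.79 FPKM in mouse 1, then 6.44, 4.69 and 4.79 FPKM in mouse 2, and 5.27 and 6.47 FPKM in mouse 3. The highest libraries were library 2 of mouse 3 and library 1 of mouse 2, and the mice overlapped.

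Hapln3, found in many tissues outside the brain, was the lowest member. The gene (chr7:79117027-79131018, minus strand) was at 0.351 ± 0.129 FPKM, from 0.122 to 0.735 FPKM, both extremes in mouse 2. Its lower confidence bound was above 0 in 5 of 8 libraries, so that its order below Acan rests on few reads. The deposited Hapln3 transcript is 1433 bases long and the paired GENCODE transcript 3358 bases.

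Each lectican gene lies next to a link protein gene, with 0 annotated genes between them, a layout that the choice of the members did not use. Acan and Hapln3 are 1927 bases apart on chromosome 7, Ncan and Hapln4 are 2222 bases apart on chromosome 8, and Vcan and Hapln1 are 43477 bases apart on chromosome 13, in all cases with their 3′ ends facing each other. Bcan and Hapln2 are 21393 bases apart on chromosome 3, on the same strand. The neighbours were not expressed in 1 fixed ratio. Bcan was 8.32 times the level of Hapln2 (6.47 to 9.86 over the libraries), Acan 2.09 times that of Hapln3 (1.31 to 4.86), and Ncan 1.16 times that of Hapln4 (0.950 to 1.52). Vcan was 0.474 times the level of Hapln1 (0.253 to 0.673). The lectican was the higher gene of its pair in all 8 libraries for Bcan and for Acan, in 7 of 8 for Ncan and in 0 of 8 for Vcan.

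**Figure D3:**
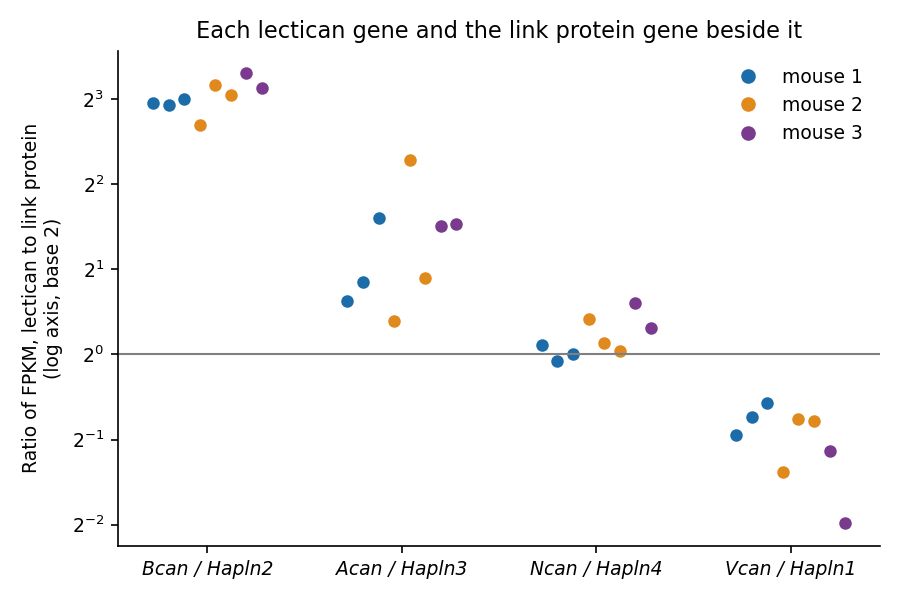
Ratio of the FPKM of each lectican gene to that of the link protein gene beside it (log axis, base 2), 1 point per library, coloured by mouse, with a line at a ratio of 1. Bcan stands 6.47 to 9.86 times above Hapln2, Ncan and Hapln4 lie near 1, and Vcan lies below Hapln1 in every library.

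Of the tenascins, Tnr was the higher. Tenascin-R is a trimer made by oligodendrocytes and some interneurons that binds the lecticans and cross-links the net. Tnr (chr1:159523769-159924922, plus strand) was at 9.81 ± 1.55 FPKM, with 10.4, 9.28 and 10.3 FPKM in mouse 1, then 9.72, 12.2 and 11.8 FPKM in mouse 2, and 10.4 and 5.96 FPKM in mouse 3. Library 2 of mouse 3 was lower than the other 7, whereas library 1 of that mouse was at the level of mouse 1. The deposited Tnr transcript is 5395 bases long and the paired GENCODE transcript 12202 bases, so that its FPKM depends on which model the reads are scaled to.

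Tenascin-C is a matrix protein of the developing brain, of neural stem cell niches and of injured tissue. Tnc (chr4:63959785-64047015, minus strand) was at 1.32 ± 0.209 FPKM, with 1.37, 1.43 and 1.54 FPKM in mouse 1, then 1.36, 1.45 and 1.50 FPKM in mouse 2, and 1.27 and 0.894 FPKM in mouse 3. Both libraries of mouse 3 were below the other 6.

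The mice were of the same strain, age and condition, so that a comparison between them shows how far single animals and their libraries vary. Differences were tested on log2(FPKM + 1) with limma's moderated F-test among the 13001 genes at or above 1 FPKM, with Benjamini-Hochberg adjustment over all of them. Of the 8 members tested, 0 passed an adjusted p of 0.05, whereas 25.5% of all tested genes did. Vcan was the 1 member with an unadjusted p below 0.05 (adjusted p = 0.0654), a level that 5303 of the 13001 genes reached. The adjusted p was 0.146 for Tnc, 0.185 for Hapln4, 0.212 for Tnr, 0.283 for Bcan, 0.574 for Hapln1, 0.697 for Hapln2 and 0.726 for Ncan. With library totals made equal (TPM), 4 members passed, Vcan, Hapln4, Tnr and Tnc, where 42.3% of all genes did. In mouse 3 against mouse 1 Hapln2 passed as well with TPM (-0.33, adjusted p = 0.0331), where 48.0% of all genes did. TPM scaling moved the median of all genes to -0.28 in mouse 3 against mouse 1, on the log2 scale, and to -0.23 against mouse 2.

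Between mouse 3 and mouse 1, where 29.7% of all tested genes passed, Vcan was the member that did. It was lower in mouse 3 by a log2 difference of -0.42 (SE 0.12, 95% interval -0.69 to -0.15, adjusted p = 0.0297). The call was lost when any library of mouse 1 was left out (differences of -0.47, -0.41 and -0.39, adjusted p = 0.0516 to 0.0905). Without library 2 of mouse 3 it was lost too, at -0.24 (adjusted p = 0.175), and without library 1 of mouse 3 the difference was -0.61 (adjusted p = 0.00693). With the trend against transcript length removed from each library, the difference was -0.18 (adjusted p = 0.109). Ncan was then the 1 member called, higher in mouse 3 by 0.32, where 26.8% of all tested genes passed. Hapln4 (-0.31, adjusted p = 0.0875) and Tnc (-0.24, adjusted p = 0.0881) did not pass, although their 95% intervals lay below 0. In this comparison 5685 of all 13001 tested genes had an unadjusted p below 0.05 in limma.

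Between mouse 3 and mouse 2, where 32.1% of all tested genes passed, 0 members did. Vcan, Tnr and Tnc had an unadjusted p below 0.05 in limma, as did 5874 of all 13001 tested genes. The log2 difference was -0.46 for Tnr (95% interval -0.89 to -0.02), -0.30 for Vcan (-0.57 to -0.02) and -0.23 for Tnc (-0.45 to -0.01). Without library 1 of mouse 3, Vcan, Tnr and Tnc passed in both comparisons of that mouse and in the F-test, where 36.6%, 38.2% and 29.4% of all tested genes passed in mouse 3 against mouse 1, in mouse 3 against mouse 2 and in the F-test. Without library 2 of mouse 3, the differences from mouse 2 were -0.10 for Tnr, -0.11 for Vcan and -0.10 for Tnc (adjusted p = 0.659, 0.493 and 0.438). The lone library of mouse 3 was in both cases assumed to vary like the others.

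Between mouse 2 and mouse 1 no member passed. Of all tested genes, 0.00769% passed (1 gene), and 0 members did. At an unadjusted p below 0.05 there were 0 members, beside 425 of all 13001 tested genes. The 95% intervals of the members' log2 differences reached at most from -0.37 (Vcan) to 0.54 (Tnr), and the narrowest was that of Hapln2, from -0.23 to 0.09.

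By their values alone, both libraries of mouse 3 lay above the other 6 for 1 of the 8 members (Bcan), as for 26.5% of all tested genes, and below them for 2 (Vcan and Tnc), as for 21.7%.

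**Figure D4:**
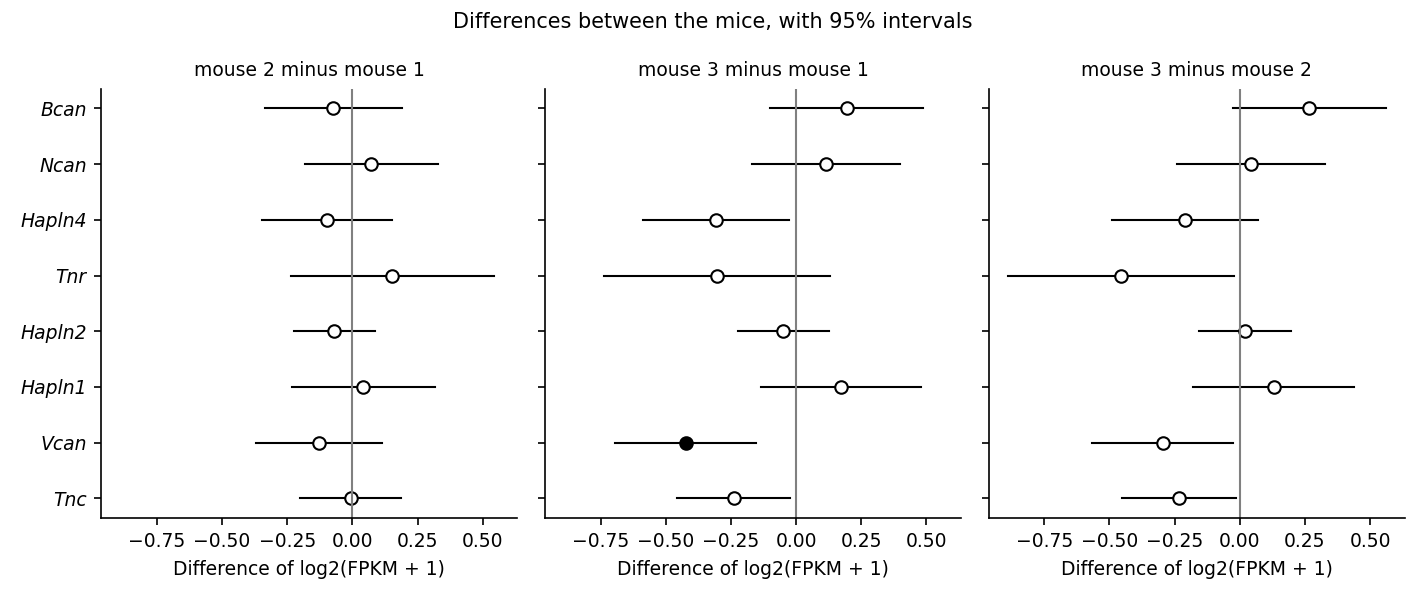
Difference of log2(FPKM + 1) between each pair of mice for the 8 members tested, with 95% intervals from limma and a filled circle for an adjusted p below 0.05. Vcan in mouse 3 minus mouse 1, at -0.42, is the filled circle, and the intervals of mouse 2 minus mouse 1 all include 0.

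Genes that make, remodel and read the matrix were taken from 11 lists that hold 85 gene symbols besides the members. Of these symbols, 84 were found and 63 reached 1 FPKM. In the F-test between the mice 14 of the 63 (22.2%) passed, beside 25.5% of all tested genes, with 8 highest and 6 lowest in mouse 3. Without library 2 of mouse 3, 0 of them passed, where 0.969% of all tested genes did, and without library 1, 2 or 3 of mouse 1 the count was 6, 5 and 4. Without library 2 of mouse 2 it was 8. Of all tested genes, 14.7%, 13.7% and 12.9% passed without library 1, 2 or 3 of mouse 1, and 18.1% without library 2 of mouse 2.

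The backbone polymer came with synthase messages of low level. The 3 hyaluronan synthases were all under 1 FPKM, from 0.0817 FPKM for Has2 to 0.510 FPKM for Has1. Of 6 genes of hyaluronan breakdown, the highest was the hyaluronidase Hyal2, at 3.27 ± 0.243 FPKM, and Spam1, the hyaluronidase of sperm, was listed at 0 in every library. The hyaluronan receptor Cd44 was at 1.40 ± 0.163 FPKM, the highest of its 5, and Stab2 the lowest at 0.0443 FPKM. None of these lists held a gene called between the mice in the limma F-test (0 of 6 tested). An unadjusted p below 0.05 in that test was reached by 1 of the 6, beside 5303 of all 13001 tested genes.

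All 11 enzymes that start and extend chondroitin chains were above 1 FPKM, from Chsy3 at 2.48 FPKM to B3gat3, which completes the linker that joins a chain to its protein, at 53.4 ± 10.9 FPKM. B3gat3, B4galt7 and Csgalnact2 differed between the mice and were highest in mouse 3 (limma adjusted p = 0.0356, 0.0360 and 0.0458), and the other 8 did not pass. Of 10 sulfotransferases and epimerases, which set the sulfation pattern of the chains, Chst11, a 4-O-sulfotransferase, was the highest (10.2 ± 0.168 FPKM) and Chst13 was listed at 0. Chst3, a 6-O-sulfotransferase chosen after its value was seen, was at 0.545 FPKM. Of this list 0 of 6 tested genes passed the limma F-test. In that test 1 had an unadjusted p below 0.05, beside 5303 of all 13001 tested genes.

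Among 8 proteoglycans outside the lectican family, 1 had a mean over the mice above that of Bcan. This was Spock2, a testican, at 132.5 ± 13.0 FPKM. Spock1 had a mean of 54.8 FPKM. On the log2(FPKM + 1) scale it was above Bcan in mouse 1 (5.95 against 5.88) and mouse 2 (5.94 against 5.81). In mouse 3 it was below Bcan (5.46 against 6.08). Cspg4, the NG2 proteoglycan of oligodendrocyte precursors, was the lowest of the 8 at 1.76 FPKM. Spock1 was lowest in mouse 3 (log2 difference from mouse 1 of -0.50, adjusted p in the F-test = 0.0119) and was the 1 gene of the 8 to pass. A list of 9 genes of proteoglycan and tenascin receptors and their relatives ran from Egfr at 2.15 FPKM to Cntn1 at 78.4 FPKM. In it the Nogo receptor family genes Rtn4r, Rtn4rl1 and Rtn4rl2 passed the F-test (adjusted p = 0.0305, 0.0384 and 0.0273). All were lowest in mouse 3, with log2 differences from mouse 1 of -0.59, -0.46 and -0.81. Whether each of the 9 binds proteoglycans was not examined.

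The proteases included enzymes that cut the lecticans. Of 16 matrix proteases, the membrane-type metalloproteinase Mmp17 was the highest (25.4 ± 2.95 FPKM) and Mmp3 the lowest (0.00530 FPKM). Adamts4, an aggrecanase and brevican-cleaving enzyme, was highest in mouse 3 (5.95 ± 0.917 FPKM, log2 difference from mouse 1 of 0.34, adjusted p in the F-test = 0.0443). Adamts20 was lowest there (1.16 ± 0.305 FPKM, -0.30, adjusted p = 0.0351). The other 8 of the 10 tested did not pass. Of 6 protease inhibitors, Serpine2 was the highest at 105.7 ± 25.0 FPKM and Timp1 the lowest at 0.418 FPKM. Timp4 and Serpine2, both known from astrocytes, were highest in mouse 3, by 1.02 and 0.52 above mouse 1 on the log2 scale (adjusted p in the F-test = 0.0150 and 0.0143).

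The other tenascins were under 1 FPKM, with Tnxb at 0.362 FPKM and Tnn at 0.0303 FPKM. Of 8 signalling proteins that bind nets or their sugar chains, Ptn, the growth factor pleiotrophin, was the highest at 100.1 ± 19.1 FPKM, and Otx2, a homeoprotein that nets capture, was the lowest at 2.60 ± 0.192 FPKM. Ptn and Mdk were highest in mouse 3 and Nptx1, a pentraxin of excitatory synapses, was lowest there, with log2 differences from mouse 1 of 0.41, 0.44 and -0.40 (adjusted p in the F-test = 0.0150, 0.0478 and 0.0177).

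**Figure D5:**
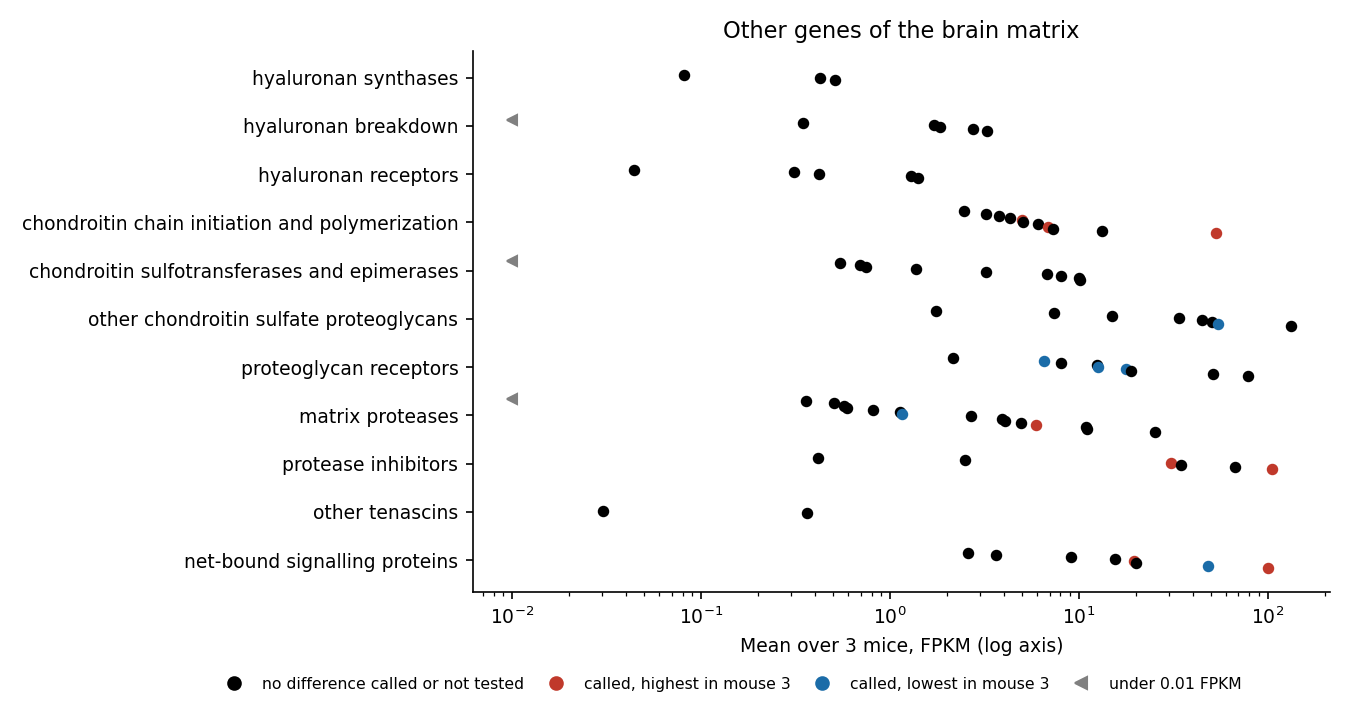
Mean FPKM over 3 mice (log axis) of the genes in 11 lists of matrix synthesis, turnover and signalling, 1 point per gene, with genes under 0.01 FPKM drawn as grey triangles at the left edge. Red and blue mark the 14 genes called between the mice, and the hyaluronan synthases and the other tenascins all lie below 1 FPKM.

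The genes whose levels over the 8 libraries were most like those of each member, among 13000 other tested genes, were found by Pearson's r of log2(FPKM + 1). They are a description only, since the libraries come from 3 mice and mouse 3 stands apart. For Vcan they were Cntrob (r = 0.991) and Dapk1 (0.988), for Tnc Adgrl2 (0.997) and Sez6 (0.996), and for Tnr Flrt1 (0.985) and Tln2 (0.977). For Bcan they were Trappc10 (0.988) and Fbxw11 (0.987), and for Ncan Pms1 (0.989) and Zkscan17 (0.987). For Hapln4 they were Rnf216 (0.997) and Dnajc5 (0.988), for Hapln1 Spock3 (0.978) and Gm10778 (0.956), and for Hapln2 Rpp25 (0.938) and Trim8 (0.936). Spock3 was the only one of these 16 that is also in a list of matrix genes.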

How the data were processed

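RNA of whole brains from 3 mice was sequenced in 8 libraries. The authors deposited FPKM per RefSeq transcript, with confidence bounds and coverage, a signal of read depth per base that is not scaled to library size. The submitters' processing notes name TopHat, Cufflinks and mm10, and their versions are not given in the sources used here. Reads shared by several transcripts were apportioned by the authors' estimation, which makes values of 1 transcript less sure than gene sums. Of all transcript values 8 failed estimation, 0 of them in members. The depth in gigabases is coverage multiplied by length. The number of reads is unknown, so no counting interval was computed. Deposited starts count from 0 and are given here from 1.

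Transcript FPKM was summed per gene (pseudocount 1, minimum mean 1 FPKM for testing). limma 3.58.1 in R 4.3.3 gave F-tests and pair contrasts between the mice, with Benjamini-Hochberg adjustment over all genes tested and a threshold of 0.05, and was tested on simulated data. Shares of the leading transcript were compared by exact permutation (Python 3.11.15 with numpy 2.4.6), one value per library. Vcan exons and junctions were read from GENCODE transcripts of GRCm38, the assembly of mm10. The members and lists were chosen with earlier results of these data known. Named genes are the members, the highest and lowest gene of each list and those called in the F-test, and the 2 most alike genes per member. Chst3, Col2a1, Col9a1, Myh4 and Mylpf were added after their values were seen. Of 126 gene symbols in the lists 125 were found, and the missing symbol was Cemip2. Alternatives were other pseudocounts and minimum levels, TPM, removal of trends with length or GC content, the highest transcript per gene, a mean-variance trend, the library number as a block, and leaving out each library.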

Additional observations from a re-analysis of the deposited data

Results flagged for a closer look

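Among 16 measures (10 member levels, the sums of the 3 families and of all members, and 2 transcript shares), 4 had a library whose gap to the nearest other library as a part of the whole range exceeded Dixon's 95% critical value for 8 values. For Ncan it was library 1 of mouse 3, at 32.0 FPKM against 26.9 FPKM in the next library (gap 0.589 of the range). For Tnr it was library 2 of mouse 3, at 5.96 FPKM against 9.28 FPKM (0.528 of the range). The same library was lowest for Tnc, at 0.894 FPKM against 1.27 FPKM (0.579 of the range), and for the sum of the tenascins, at 6.85 FPKM against 10.7 FPKM (0.564 of the range), which holds both genes. Chance alone passes this limit in about 1 of 20 groups, the libraries of a mouse are not independent, and all 4 cases involve mouse 3, whose libraries stand apart in summed FPKM and marker genes.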

How the results depend on the processing

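The order of the 10 members by level was the same under all 11 alternatives. Most of these leave out 1 library, TPM scales all genes of a library alike, and none changes the transcript lengths used. Their summed level, 136.6 FPKM, was 124.0 FPKM with the highest transcript per gene, 396.4 with TPM scaling, a change of unit, and 132.6 to 140.6 FPKM when a library was left out. Of 8 members, the F-test called 4 with TPM, 3 with the GC trend removed, 1 with the highest transcript, and 0 to 3 without 1 library, beside 42.3%, 34.4%, 19.2% and 0.969 to 29.8% of all tested genes. For mouse 3 against mouse 1 the count, 1 as reported, was 0 without a filter on level or with a mean of at least 5 FPKM (which leaves 6 members, Vcan not among them), 5 with TPM, 3 with the GC trend removed, and 0 to 3 without 1 library, beside 8.68%, 40.9%, 48.0%, 38.5% and 7.80 to 38.2% of all tested genes in the same order. For mouse 3 against mouse 2 it was 4 with TPM, 4 with the GC trend removed, 1 with the highest transcript, and 0 to 3 without 1 library, beside 44.9%, 40.7%, 26.6% and 7.42 to 38.2%. The count of other matrix genes called, 14, was 7 of 84 with no filter, 27 of 63 with TPM, 23 of 62 with the GC trend removed and 8 of 62 with the highest transcript. Of all tested genes, 5.03%, 42.3%, 34.4% and 19.2% passed in these settings. Without 1 library of mouse 1 or mouse 2 the count was 4 to 20, beside 12.9% to 29.8% of all tested genes. Signs turned, with no call on either side, in mouse 3 against mouse 1 for Bcan (-0.10), Ncan (-0.17) and Hapln1 (-0.085) with TPM, Ncan without library 1 of mouse 3 (-0.11, range without 1 library -0.11 to 0.34) and Tnr without library 2 of mouse 3 (0.052, range -0.66 to 0.052). Against mouse 2 they turned for Bcan (-0.035), Ncan (-0.26), Hapln1 (-0.14) and Hapln2 (-0.27) with TPM, Ncan (-0.054) and Hapln2 (-0.075) with the GC trend removed, Hapln2 with the length trend removed (-0.13), Ncan without library 1 of mouse 3 (-0.18, range -0.18 to 0.26) and Hapln2 without library 2 of mouse 2 (-0.010, range -0.010 to 0.042). The cause of these changes was not tested. With the library number as a replicate block, 0 members were called in any comparison (Vcan in mouse 3 against mouse 1, -0.39, adjusted p = 0.0662). Of all tested genes, 28.2% then passed in mouse 3 against mouse 1 and 31.2% in mouse 3 against mouse 2. In mouse 2 against mouse 1, 0.00769% did. In the F-test of that setting 9 other matrix genes passed, beside 23.0% of all tested genes. What the numbers stand for is not stated, and deviations of same-numbered libraries correlated weakly over genes (r = 0.00276 to 0.107 in 7 pairs). The V2 share of Vcan was 58.7 to 62.1% without 1 library (exact p = 0.00952 to 0.0381), and that of the longer Bcan transcript 80.0 to 80.9% (p = 0.00952 to 0.243). Shares of coverage gave the same p, but they equal the shares of FPKM up to rounding in every library and are no separate check. The depth limits Acan, Hapln3 and the minor Vcan transcripts most.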
